A study of Homo sapiens with 4 samples.

Results

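RNA of A673 cells transfected with an siRNA against FAT4 was compared between 48 h and 24 h after transfection. The comparison rested on 2 of the 4 libraries of the study, 1 at each time, which were picked out by their labels. The other 2 libraries came from cells given a control siRNA for 24 h or 48 h, named control in the titles and scramble in the treatment label. Their time ratio is given beside many of the results. A value printed for FAT4 siRNA alone is not thereby particular to FAT4 siRNA. A673 is an established Ewing sarcoma cell line, and the labels give it for every library. All cells grew in DMEM with 10% fetal bovine serum and were transfected with Lipofectamine RNAiMAX, so the transfection itself is shared by both siRNAs. No library of untransfected cells was used here, and the labels give neither the siRNA sequences nor whether the medium was renewed between the times. Time after transfection, time in the medium and cell density therefore cannot be told apart. With 1 library a side there is no replicate, no p-value is given, and the spread between cultures is unknown.

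FAT4 encodes a giant atypical cadherin that binds DCHS1 on the neighbouring cell and acts in planar polarity of tissues and in growth control through the Hippo pathway. Cultured cells that deplete amino acids, glucose or oxygen respond through sensor kinases, and the kinases of the integrated stress response phosphorylate the initiation factor eIF2, which lowers general translation and favours translation of the transcription factor ATF4. ATF4 activates genes that make, import and charge amino acids, and with its partner DDIT3, also called CHOP, it activates feedback genes such as TRIB3 and PPP1R15A. Low oxygen acts through hypoxia-inducible factors on genes of glycolysis and mitochondrial turnover, and low sterol acts through SREBP factors on lipid synthesis.

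Counts assigned to genes totalled 15196813 at 24 h and 15413960 at 48 h under FAT4 siRNA, and 22625833 and 19614913 under control siRNA. Levels are given as CPM, counts relative to a common library size after TMM scaling of the 4 libraries, and 3 counts stood for 0.203 CPM at 24 h and 0.192 CPM at 48 h under FAT4 siRNA. A ratio of 48 h to 24 h is called higher or lower at 1.5-fold or more on the scale of CPM + 1, which understates the ratios of genes with few counts. It was taken over 10595 of the 23228 genes in the files, those with a mean of at least 5 CPM over the 4 libraries. Intervals printed beside plain CPM ratios are exact 95% intervals of counting error and do not hold the spread between cultures. In both FAT4 siRNA libraries 11 of 12 Ewing sarcoma markers had counts, CD99 being listed at 0 in every library, and the summed marker level was 5882 CPM at 24 h and 5551 CPM at 48 h. CCND1 alone made 3382 and 2979 CPM of these sums, and GLG1 went from 873 to 1292 CPM. Of the 11 markers 2 had a ratio of 48 h to 24 h above 1 under FAT4 siRNA, with a median log2 ratio of -0.26. Under control siRNA 5 were above 1, with a median of -0.11. Markers of epithelium summed to 1.02 and 2.56 CPM over 10 genes, of which 6 and 4 were at 0 counts, with EPCAM at 0 counts and at 1 count, those of endothelium to 2.77 and 2.37 CPM, and those of liver to 0.338 and 0.192 CPM. In RNA of a whole culture, fewer cells that express a gene and less of its RNA per cell cannot be told apart.

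FAT4 was at 71.8 CPM at 24 h and 60.1 CPM at 48 h under FAT4 siRNA, and 165 and 149 CPM under control siRNA. Its ratio of 48 h to 24 h was 0.838 under FAT4 siRNA (interval 0.767 to 0.916) and 0.903 under control siRNA (interval 0.86 to 0.948). At each time FAT4 was lower with its own siRNA than with the control siRNA.

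From 24 h to 48 h under FAT4 siRNA, 12 of 19 regulators of the integrated stress response, 11 of 17 genes of serine, asparagine and proline synthesis and 12 of 20 genes of the hypoxia response were at least 1.5-fold higher. In the sterol list 7 of 26 were so, and in that of fatty acid synthesis 6 of 18. On the lower side stood 8 of 40 MYC target and nucleolus genes and 4 of 49 genes of the G1/S list, most of whose members were not past 1.5-fold. Over all genes, 593 genes (5.6%) were higher by 1.5-fold or more and 314 (2.96%) were lower. At 2-fold the numbers were 154 higher (1.45%) and 33 lower (0.311%). The shares of 5.6% and 2.96% are the background of every list count at 1.5-fold under FAT4 siRNA, here and below. The counting interval lay above 1 for 2806 genes (26.5%), the 593 among them, and below 1 for 3578 (33.8%), the 314 among them. Higher genes made up 65.4% of those at least 1.5-fold apart, and 76.6% when the libraries were scaled by their gene totals, which moved the median log2 ratio of all genes from -0.03 to 0.03. Under control siRNA 430 genes (4.06%) were higher by 1.5-fold and 231 (2.18%) lower over the same interval, and at 2-fold 92 (0.868%) and 29 (0.274%). Those 2 control libraries share no counts with the FAT4 siRNA libraries.

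The time ratios of the 2 siRNAs ran together across genes. Across the 10595 genes the log2 ratios under FAT4 siRNA and under control siRNA had a Pearson r of 0.741 and a Spearman rho of 0.664. Both ratios lay on the same side of 1 in 74.03% of genes. Both descriptions are across genes, which are not independent replicates, and the 2 ratios share the scaling and the filter. Of the 593 higher genes 578 were also above 1 under control siRNA, and 266 were at least 1.5-fold higher there as well, which was 44.86% of the higher genes under FAT4 siRNA and 61.86% of those under control siRNA. Of the 314 lower genes 286 were also below 1 under control siRNA, and 90 were at least 1.5-fold lower there as well, 28.66% and 38.96% of the respective lists. The genes were picked by their ratio under FAT4 siRNA, so their smaller median log2 ratios under control siRNA (0.55 against 0.78 for the higher genes and -0.43 against -0.70 for the lower ones) are no comparison of the siRNAs.

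**Figure D1:**
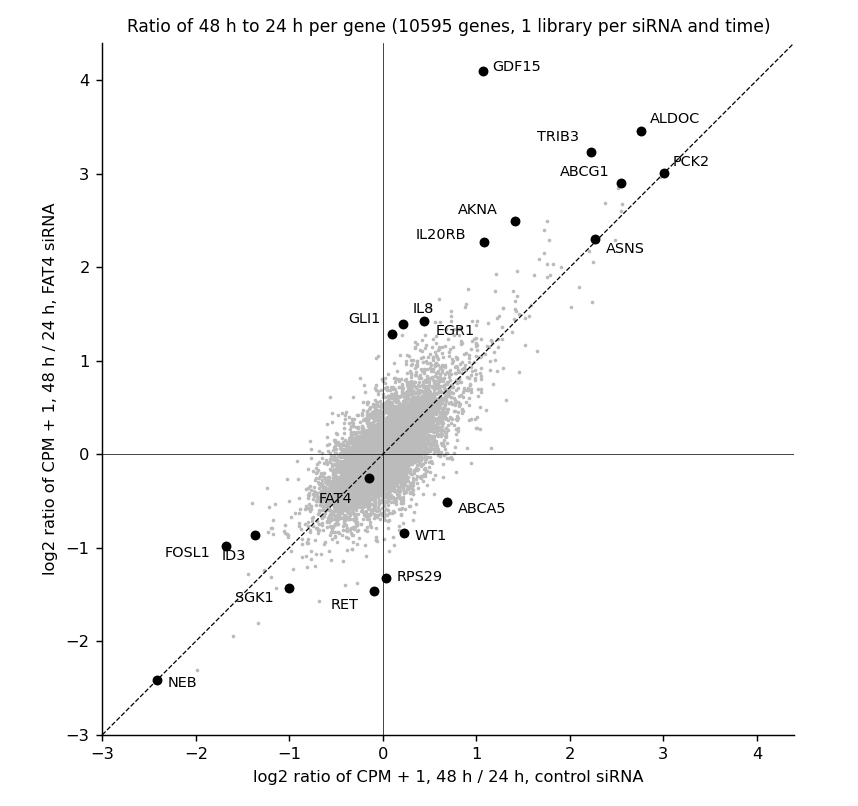
Log2 ratio of CPM + 1 at 48 h over 24 h under control siRNA (x axis) and under FAT4 siRNA (y axis), 1 grey point for each of 10595 genes, with named genes in black and a dashed line where both ratios are equal. The cloud runs along the dashed line, PCK2, ASNS and NEB lie close to it, GDF15 lies far above it and RET and RPS29 lie below it.

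The highest single ratio was that of GDF15, a stress-induced cytokine of the TGF-beta family. GDF15 was at 0.879 CPM at 24 h and 31.2 CPM at 48 h under FAT4 siRNA, and 0.851 and 2.88 CPM under control siRNA. It had 13 counts in the FAT4 siRNA library at 24 h and 488 at 48 h, a ratio of 35.5 with an interval of 20.6 to 67.1, against 3.39 under control siRNA (interval 1.99 to 6.03). Of the 4 libraries only the one of FAT4 siRNA at 48 h held more than 3 CPM of GDF15.

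The pseudokinase TRIB3, a feedback inhibitor of ATF4, was at 43.6 CPM at 24 h and 417 CPM at 48 h under FAT4 siRNA, and 44.99 and 215 CPM under control siRNA. Its log2 ratio was 3.23 under FAT4 siRNA and 2.23 under control siRNA. DDIT3, the CHOP transcription factor, was at 54.2 CPM at 24 h and 125 CPM at 48 h under FAT4 siRNA, and 46.1 and 58.9 CPM under control siRNA, with log2 ratios of 1.20 and 0.35. For both genes the libraries of 24 h lay close together and the FAT4 siRNA library of 48 h was the highest of the 4. PPP1R15A, the phosphatase subunit that reverses eIF2 phosphorylation, was at 116 CPM at 24 h and 124 CPM at 48 h under FAT4 siRNA, and 97.5 and 64.3 CPM under control siRNA. It stayed near its 24 h level under FAT4 siRNA and was lower at 48 h under control siRNA.

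Other regulators were at least 1.5-fold higher with both siRNAs. DDIT4, an inhibitor of mTORC1 signalling, went from 12.4 to 95.4 CPM under FAT4 siRNA and from 16.6 to 99.2 CPM under control siRNA, log2 ratios of 2.84 and 2.51. CHAC1, which degrades glutathione, had log2 ratios of 2.29 and 2.48, and SESN2, a leucine-binding restraint on mTORC1, had 2.04 and 1.82. ATF4 itself had log2 ratios of 0.83 and 0.61, ATF5 had 1.95 and 1.43, and ATF3, the stress-induced repressor, had 1.18 and 0.99. The AP-1 repressor JDP2 had 1.79 and 2.09.

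As a list, 12 of the 19 counted regulators of the integrated stress response were at least 1.5-fold higher at 48 h under FAT4 siRNA and 0 were lower, with a median log2 ratio of 1.18 against -0.03 for all genes. Under control siRNA 12 were higher and 1 was lower, with a median of 0.99. The ratio was larger under FAT4 siRNA for 15 of the 19 (78.9%, against 50.6% of all genes), and the median difference was 0.216. With the trends on transcript GC content and length removed from both ratios 14 of the 19 were larger (73.7%, against 51.2% of all genes with a transcript), and the median difference was 0.127. In the list of nuclear retained and snoRNA host RNAs, which can move with RNA quality, 11 of 13 had the larger ratio under FAT4 siRNA (84.6%), with a median difference of 0.245, and 11 of 13 after removal of the trends, with 0.324. Their part in this difference and in those of the lists below was not tested. Whether the siRNAs differ could not be tested, here or below, because single libraries leave nothing to measure their spread with.

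**Figure D2:**
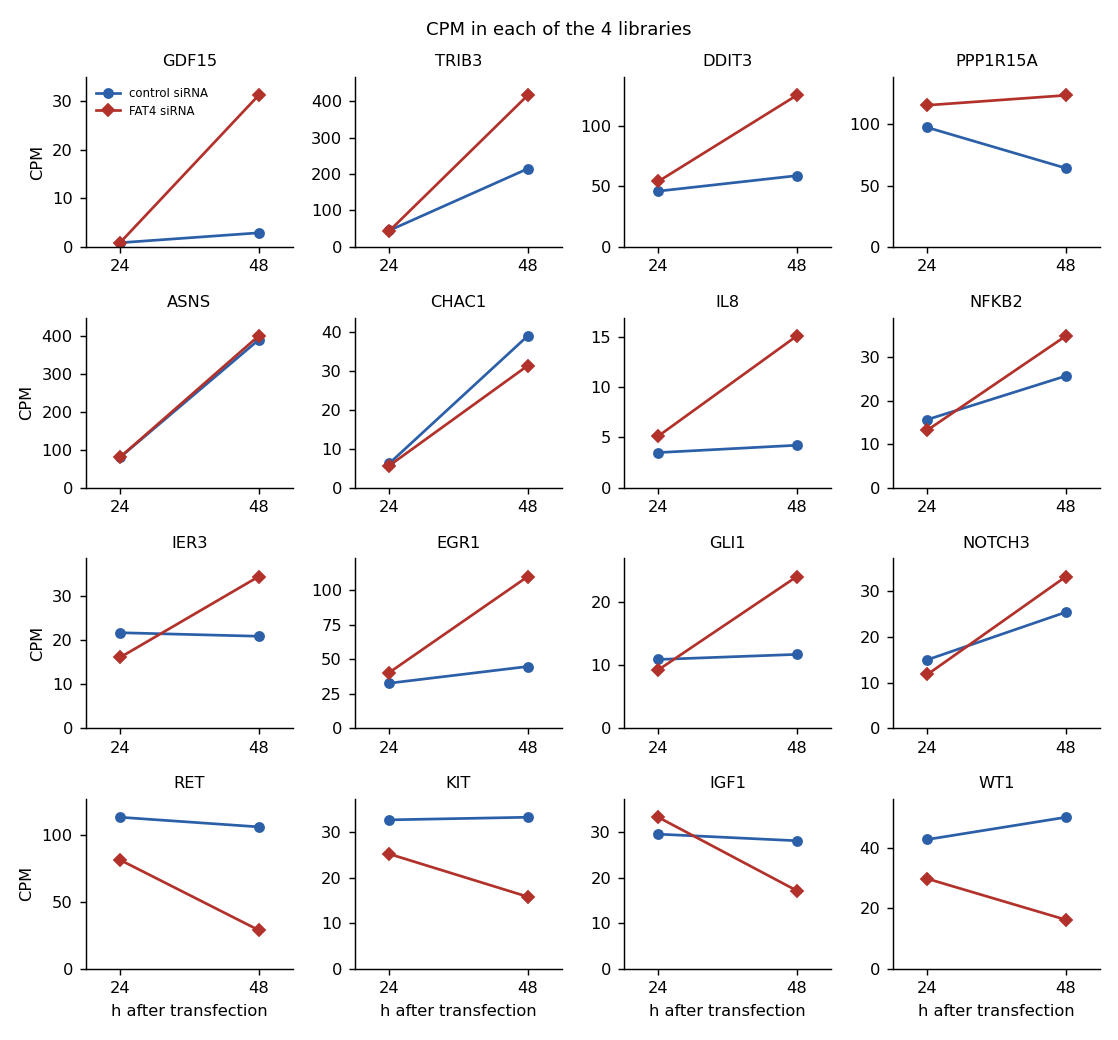
CPM of 16 genes at 24 h and 48 h after transfection (x axis, h; y axis, CPM from 0, 1 scale per gene), 1 library per point, with diamonds for FAT4 siRNA and circles for control siRNA. ASNS takes nearly the same course with both siRNAs, whereas GDF15, TRIB3, DDIT3, IL8, IER3, EGR1 and GLI1 end highest in the FAT4 siRNA library at 48 h and RET, KIT, IGF1 and WT1 end lowest in it.

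Of the 17 counted enzymes that make serine, glycine, asparagine and proline and feed the folate cycle, 11 were at least 1.5-fold higher and 0 lower under FAT4 siRNA, with a median log2 ratio of 0.95, and the counts under control siRNA were the same with a median of 0.80. Asparagine synthetase, ASNS, was at 80.02 CPM at 24 h and 399 CPM at 48 h under FAT4 siRNA, and 79.7 and 388 CPM under control siRNA. Its ratio was 4.99 under FAT4 siRNA (interval 4.68 to 5.31) and 4.88 under control siRNA (interval 4.63 to 5.13). All ASNS values of 48 h lay far above those of 24 h, and the siRNAs were close at each time.

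The serine pathway runs from PHGDH through PSAT1 to PSPH. PHGDH went from 313 to 634 CPM, PSAT1 from 209 to 572 CPM and PSPH from 59.5 to 112 CPM under FAT4 siRNA, log2 ratios of 1.02, 1.45 and 0.90 against 0.79, 1.52 and 1.15 under control siRNA. In the mitochondrial folate branch, ALDH1L2, which oxidizes formyl-tetrahydrofolate, was at 14.5 CPM at 24 h and 98.2 CPM at 48 h under FAT4 siRNA, and 14.4 and 89.3 CPM under control siRNA. MTHFD2 had log2 ratios of 1.22 and 1.16 and SHMT2 of 0.73 and 0.39, whereas the cytosolic SHMT1 was at -0.42 and -0.02. CTH, which makes cysteine from cystathionine, had 2.0 and 1.91, and PYCR1, the last enzyme of proline synthesis, had 1.35 and 0.83. PCK2, the mitochondrial phosphoenolpyruvate carboxykinase, was at 14.5 CPM at 24 h and 124 CPM at 48 h under FAT4 siRNA, and 14.9 and 127 CPM under control siRNA. Its log2 ratio was 3.01 with FAT4 siRNA and 3.0 with control siRNA, and it led the genes that were higher under both.

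Cytosolic aminoacyl-tRNA synthetases, which charge tRNAs with their amino acids, split by member. At 48 h 7 of 20 were at least 1.5-fold higher under FAT4 siRNA and 0 lower, with a median log2 ratio of 0.40 against 0.48 under control siRNA. GARS went from 365 to 748 CPM, SARS from 275 to 560.2 CPM, and WARS from 248 to 506 CPM. The log2 ratio of WARS was 1.02 under FAT4 siRNA and 0.53 under control siRNA, while GARS had 1.03 and 1.04. CARS, AARS, MARS and YARS followed at 0.90, 0.86, 0.74 and 0.66 under FAT4 siRNA, and RARS was at -0.37.

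Amino acid transporters were mixed. Of 17 counted, 5 were at least 1.5-fold higher and 1 lower under FAT4 siRNA, and the median log2 ratio was 0.05 against 0.15 under control siRNA. The glycine transporter SLC6A9 was at 25.6 CPM at 24 h and 73.1 CPM at 48 h under FAT4 siRNA, and 30.8 and 74.1 CPM under control siRNA, a log2 ratio of 1.48. SLC38A1 and SLC1A5, which import glutamine, had 0.79 and 0.72, the cationic transporter SLC7A1 had 0.69, and the lysosomal SLC36A1 had -0.65. The cystine importer SLC7A11 had 0.15 under FAT4 siRNA and 0.65 under control siRNA.

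ATF4 binds composite elements whose core is written here as TGATGNAA, and promoter windows of genes in these lists were searched for it on both strands, a search chosen after the ratios had been seen. The windows run from 250 bases before to 50 bases after the annotated start and come from RefSeq on GRCh38.p14, and 8674 of the 10595 counted genes had one. The core was found in 6 of 13 synthetase windows (46.2%), 4 of 15 transporter windows (26.7%), 3 of 12 windows of the serine, asparagine and proline list (25.0%) and 2 of 18 of the regulators (11.1%). It was found in 1.57% of the windows of all counted genes, in 4.63% of the windows of genes at least 1.5-fold higher under FAT4 siRNA and 1.64% of those at least 1.5-fold lower. At 2-fold the shares were 6.72% of 119 windows of higher genes and 9.09% of 22 windows of lower genes, 2 of them. All promoter windows in the table, of which there were 27305, held it in 3.67%. Stretches of 30 bases around the core are printed 5′ to 3′ on the strand of the gene, to show what the match looks like in genes of 3 of these lists, with the 8 bases that match the core, read on either strand, in capitals.
ASNS, chr7:97872458-97872487, minus strand: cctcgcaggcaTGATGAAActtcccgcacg
CHAC1, chr15:40953251-40953280, plus strand: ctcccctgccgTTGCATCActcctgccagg
ATF3, chr1:212565205-212565234, plus strand: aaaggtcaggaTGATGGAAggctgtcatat
GOT1, chr10:99430804-99430833, minus strand: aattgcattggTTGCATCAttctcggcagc
AARS, chr16:70289675-70289704, minus strand: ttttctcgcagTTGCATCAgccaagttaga
The ASNS core begins 68 bases before the annotated start, that of AARS 187 bases, of ATF3 191 bases, of GOT1 198 bases and of CHAC1 209 bases before it. These genes had log2 ratios of 2.30, 0.86, 1.18, 0.95 and 2.29 under FAT4 siRNA. They were picked for print among members at least 1.5-fold higher, with the stretch before the annotated start, so their ratios say nothing about the core. Members with the core that were not past 1.5-fold included SLC1A3, SLC3A2 and MTHFD1L, at -0.16, 0.31 and 0.42. A match of letters is a description of the window and not a measured binding site.

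Chaperones and sensors of the endoplasmic reticulum did not share one direction. Of 25 counted, 4 were at least 1.5-fold higher and 1 lower under FAT4 siRNA, against 5.6% and 2.96% of all genes. The median log2 ratio was 0.04 under FAT4 siRNA and -0.08 under control siRNA. The degradation factor HERPUD1 went from 58.04 to 107 CPM, the transcription factor XBP1 from 82.7 to 147 CPM, and the sensor ERN1, also called IRE1, from 5.07 to 8.89 CPM. The main chaperone HSPA5, called BiP, was at 1091 CPM at 24 h and 1098 CPM at 48 h under FAT4 siRNA, and 1024 and 721 CPM under control siRNA. HSPA5 thus kept its 24 h level under FAT4 siRNA and was lower at 48 h under control siRNA, log2 ratios of 0.01 and -0.51, the former below 0 with DESeq2 size factors. The co-chaperone SDF2L1 was lower with both siRNAs, at -0.76 and -0.53.

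Among genes of the hypoxia response outside glycolysis 12 of 20 were at least 1.5-fold higher under FAT4 siRNA and 0 lower, with a median log2 ratio of 0.67. Under control siRNA 10 were higher and 0 lower, with a median of 0.58. BNIP3, a receptor for mitochondrial autophagy, was at 14.8 CPM at 24 h and 46.7 CPM at 48 h under FAT4 siRNA, and 16.9 and 52.8 CPM under control siRNA. Its relative BNIP3L had log2 ratios of 1.14 and 1.23. The collagen prolyl hydroxylase subunit P4HA2 went from 3.72 to 14.8 CPM, a log2 ratio of 1.74 against 1.20 under control siRNA, and the angiogenic ligand VEGFA had 1.16 and 1.01. DDIT4, STC2 and VEGFA were also in the list of the integrated stress response, so the lists are not separate observations.

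In glycolysis the genes went different ways. ALDOC, the brain-type aldolase, was at 7.17 CPM at 24 h and 88.9 CPM at 48 h under FAT4 siRNA, and 11.5 and 83.7 CPM under control siRNA, the second highest ratio of all genes at log2 3.46. The lactate exporter SLC16A3 was at 0.271 CPM at 24 h and 8.95 CPM at 48 h under FAT4 siRNA, and 0.806 and 13.1 CPM under control siRNA, with only 4 counts behind the 24 h value under FAT4 siRNA, so its plain ratio of 33.1 has an interval of 12.6 to 123. PDK1, a kinase that inhibits pyruvate dehydrogenase, had log2 ratios of 2.03 and 1.76. The bifunctional enzyme PFKFB4 had 1.38, while its relative PFKFB3 was lower at -0.91, and LDHA was at -0.05, and above 0 with gene totals. In all 6 of 25 were at least 1.5-fold higher and 1 lower, with a median of 0.04 against 0.14 under control siRNA.

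The core of the hypoxia response element, ACGTG on either strand, was found in 9 of 16 windows of the hypoxia list (56.2%) and 8 of 22 of glycolysis (36.4%), against 27.8% of the windows of all counted genes and 27.1% of those of genes at least 1.5-fold higher. It is a short word, and 21.6% of all promoter windows held it. The windows of 3 genes with high ratios are printed as before, with the core in capitals, and in BNIP3 and ALDOC an overlapping match lay on the other strand too.
DDIT4, chr10:72273788-72273817, plus strand: gaacgttgcttACGTGcgcccggagtccat
BNIP3, chr10:131982038-131982067, minus strand: gcacgcgccgcACGTGccacacgcacccca
ALDOC, chr17:28577116-28577145, minus strand: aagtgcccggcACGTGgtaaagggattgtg
These cores begin 125, 133 and 239 bases before the annotated starts. The share of the 593 higher genes with the word was near that of all counted genes, and at 2-fold it was 22.7% of higher and 31.8% of lower genes.

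In lipid synthesis a minority of genes were past 1.5-fold. In the sterol list 7 of 26 were at least 1.5-fold higher under FAT4 siRNA and 0 lower, with a median log2 ratio of 0.41, and under control siRNA 13 were higher and 0 lower with a median of 0.59. INSIG1, which holds SREBP factors in the endoplasmic reticulum, was at 94.02 CPM at 24 h and 264 CPM at 48 h under FAT4 siRNA, and 82.5 and 245 CPM under control siRNA. Its log2 ratios were 1.48 and 1.56, and HMGCS1, the cytosolic HMG-CoA synthase, had 1.14 and 1.14. Later enzymes were less apart under FAT4 siRNA than under control siRNA: the mevalonate decarboxylase MVD had 0.70 and 1.01, FDPS had 0.55 and 0.80, and CYP51A1 had 0.45 and 0.69. Only 5 of the 26 had the larger ratio under FAT4 siRNA (19.2%), and 5 of 24 (20.8%) after removal of the GC and length trends, with median differences of -0.151 and -0.171. The sterol element TCACNCCAC, searched on both strands, was found in 1 of 19 windows of this list (5.26%), that of SREBF2, and in 1.11% of the windows of all counted genes.

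Among 18 genes of fatty acid synthesis 6 were at least 1.5-fold higher and 0 lower, with a median of 0.41 under either siRNA. ACSS2, which makes acetyl-CoA from acetate, went from 28.6 to 85.6 CPM, and the stearoyl-CoA desaturase SCD from 1125 to 2221 CPM. In the list of LXR targets 3 of 11 were higher and 0 lower. ABCG1, a cholesterol exporter, was at 0.541 CPM at 24 h and 10.5 CPM at 48 h under FAT4 siRNA, and 1.16 and 11.6 CPM under control siRNA, with 8 counts behind its lowest value. NR1H3, the receptor LXR alpha, was at 10.6 CPM at 24 h and 23.01 CPM at 48 h under FAT4 siRNA, and 9.4 and 10.8 CPM under control siRNA. Its log2 ratios were 1.06 and 0.19, past 1.5-fold under FAT4 siRNA and not past it under control siRNA, a difference that was not tested. VLDLR, a lipoprotein receptor among the 15 genes with the highest ratios, had 2.60 and 2.54. The glucose-responsive arrestin TXNIP was at 14 CPM at 24 h and 72.1 CPM at 48 h under FAT4 siRNA, and 17.3 and 61.4 CPM under control siRNA, and 2 of 11 genes of its list were higher and 0 lower.

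**Figure D3:**
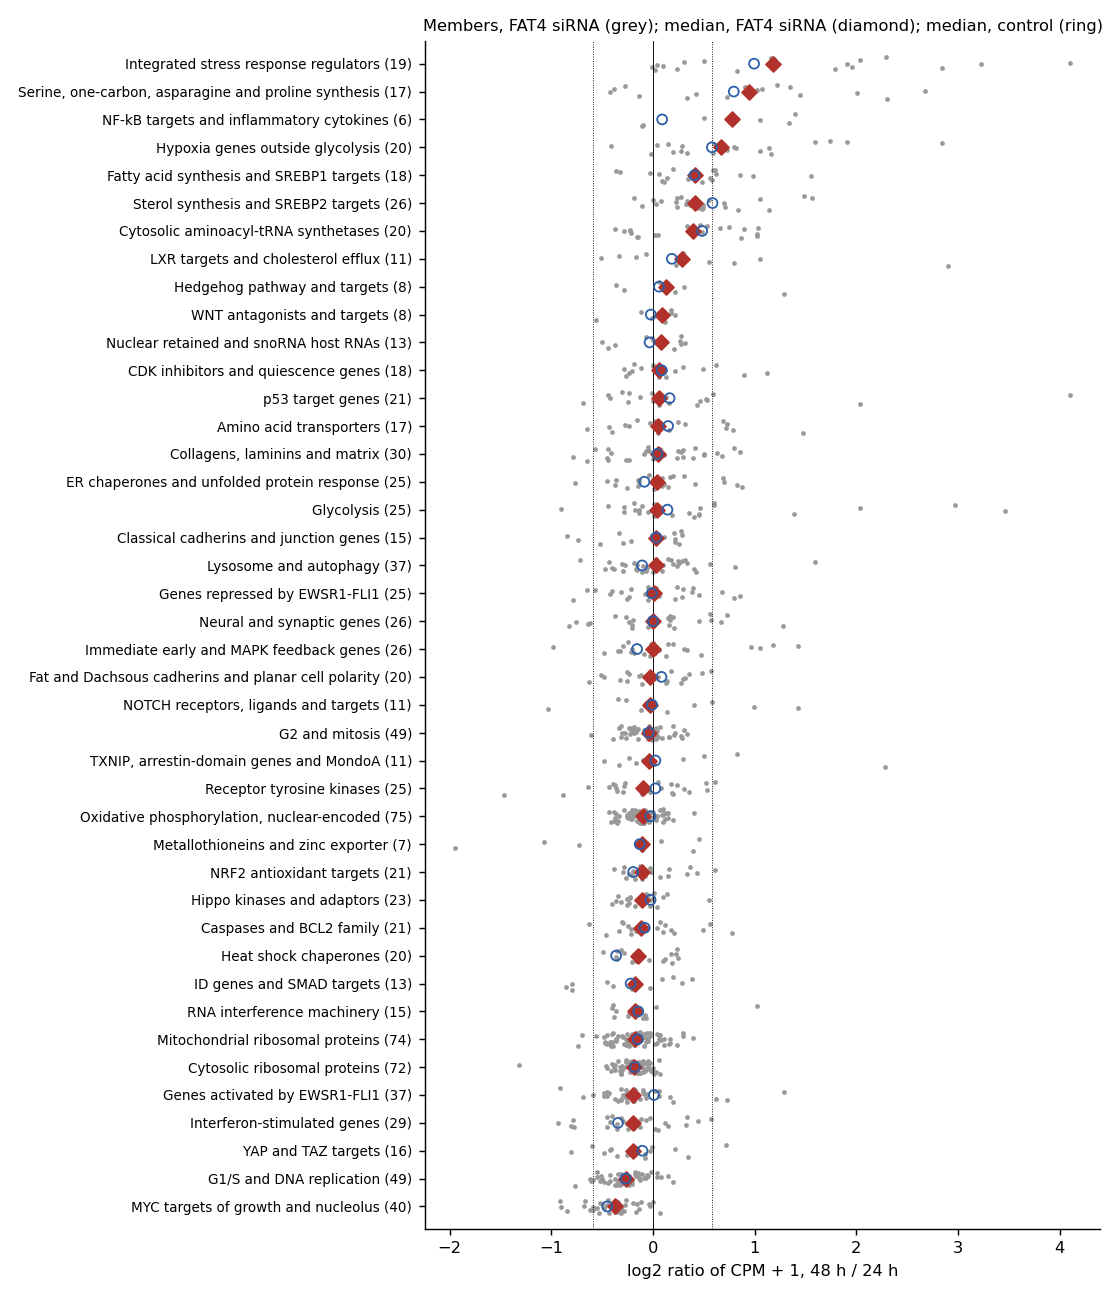
Log2 ratio of CPM + 1 at 48 h over 24 h (x axis) for the gene lists with at least 5 counted members, the number in brackets, ordered by median under FAT4 siRNA; grey points are members under FAT4 siRNA, diamonds their median, rings the median under control siRNA, and dotted lines mark 1.5-fold. The integrated stress response and the serine and asparagine list lead with medians of 1.18 and 0.95, and the MYC target and nucleolus list is last at -0.37.

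In the list of MYC targets of growth and nucleolus, which holds many genes of ribosome assembly, 8 of 40 were at least 1.5-fold lower under FAT4 siRNA, against 2.96% of all genes, and 0 higher, with a median log2 ratio of -0.37. Under control siRNA 14 were lower and 0 higher, with a median of -0.45. RRS1, a ribosome assembly factor, was at 92.3 CPM at 24 h and 48.4 CPM at 48 h under FAT4 siRNA, and 69.9 and 41.8 CPM under control siRNA. UTP20, of the small subunit processome, went from 253 to 135 CPM and BOP1, of the large subunit pathway, from 25.6 to 13.8 CPM. MYC itself was at 0.07 and -0.10. Of the 40, 31 had the larger ratio under FAT4 siRNA (77.5%), and 28 after removal of the GC and length trends (70.0%).

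Products of the translation and respiratory machinery differed less. Of 72 cytosolic ribosomal protein genes 0 were at least 1.5-fold higher and 1, RPS29, was lower, with a median of -0.19 against -0.18 under control siRNA. RPS29 was at 31.8 CPM at 24 h and 12.2 CPM at 48 h under FAT4 siRNA, and 45.9 and 47.1 CPM under control siRNA, but its counts are uncertain, since the genome holds many near-identical copies. Of 74 mitochondrial ribosomal protein genes 0 were higher and 2, MRPL1 and MRPL41, were lower, with a median of -0.18, and of 75 nuclear-encoded subunits of oxidative phosphorylation 0 were past 1.5-fold either way, with a median of -0.10.

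Most genes of the cell cycle were not past 1.5-fold. In the G1/S list, which holds DNA replication genes, 4 of 49 were at least 1.5-fold lower, against 2.96% of all genes, and 0 higher, with a median of -0.26 against -0.27 under control siRNA. They were the cyclin CCNE1, which went from 9.94 to 5.43 CPM, the polymerase alpha subunit POLA2, from 163 to 106 CPM, the helicase cofactor GINS2, from 96.5 to 63.03 CPM, and the checkpoint adaptor CLSPN, from 156 to 103 CPM. POLA2 and GINS2 had log2 ratios of -0.21 and -0.22 under control siRNA, against -0.62 and -0.61. In the G2 and mitosis list 1 of 49 was lower, the kinase PLK1 at -0.61, and 0 were higher, and the median of -0.04 changed sign when libraries were scaled by gene totals. Among inhibitors and quiescence genes 3 of 18 were higher: CCNG2, which went from 9.47 to 21.7 CPM, BTG1, from 20.4 to 38.9 CPM, and FOXO3, from 9.06 to 14.5 CPM. Of 21 p53 targets 3 were higher and 1 was lower, against 5.6% and 2.96% of all genes. Under control siRNA 3 were higher and 1 lower as well. The higher ones under FAT4 siRNA were GDF15 and SESN2 of the stress response list and the death receptor TNFRSF10B, at 0.59. The lower one was PHLDA3, at -0.69.

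Several targets of NF-kB, a factor of inflammatory signalling, were higher at 48 h under FAT4 siRNA. IL8, the neutrophil chemokine CXCL8, was at 5.14 CPM at 24 h and 15.2 CPM at 48 h under FAT4 siRNA, and 3.49 and 4.22 CPM under control siRNA. IER3, an early response gene of NF-kB, was at 16.03 CPM at 24 h and 34.3 CPM at 48 h under FAT4 siRNA, and 21.6 and 20.8 CPM under control siRNA, and NFKB2, the precursor of p52, was at 13.2 CPM at 24 h and 34.8 CPM at 48 h under FAT4 siRNA, and 15.6 and 25.6 CPM under control siRNA. In each of these 3 genes the FAT4 siRNA library of 48 h was the highest of the 4. Of the 21 entries of the list only 6 were counted. Of these 3 were higher and 0 lower, with a median log2 ratio of 0.78 against 0.09 under control siRNA. With the GC and length trends removed, the 5 members with a matched transcript, IL8 not among them, had medians of 0.50 and 0.08. NFKBIA and SOD2 were at -0.10 and -0.10. The interleukin 20 receptor subunit IL20RB, in no list, was at 1.96 CPM at 24 h and 13.2 CPM at 48 h under FAT4 siRNA, and 1.83 and 5.02 CPM under control siRNA.

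EGR1, a zinc finger factor induced by growth factors, was at 40.2 CPM at 24 h and 109.7 CPM at 48 h under FAT4 siRNA, and 32.5 and 44.6 CPM under control siRNA. Its ratio was 2.73 under FAT4 siRNA (interval 2.48 to 2.997) and 1.37 under control siRNA (interval 1.24 to 1.51). The nuclear receptor NR4A1 had log2 ratios of 0.97 and 0.36, and the AP-1 subunit FOSL1 was lower, at -0.98 and -1.68. In that list 4 of 26 were higher and 1 was lower, and 19 of 26 had the larger ratio under FAT4 siRNA (73.1%), or 18 after removal of the trends (69.2%).

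Receptor tyrosine kinases were mostly close to all genes, and RET and KIT were among those on the lower side. RET, the receptor for GDNF family ligands, was at 81.6 CPM at 24 h and 29.02 CPM at 48 h under FAT4 siRNA, and 114 and 106 CPM under control siRNA. Its ratio was 0.356 under FAT4 siRNA (interval 0.319 to 0.397) and 0.936 under control siRNA (interval 0.884 to 0.992), and the FAT4 siRNA library of 48 h was the lowest of the 4. KIT, the receptor for stem cell factor, was at 25.2 CPM at 24 h and 15.8 CPM at 48 h under FAT4 siRNA, and 32.6 and 33.2 CPM under control siRNA. Both lay near their 24 h level under control siRNA. In the list 1 of 25 was at least 1.5-fold higher, FGFR4 at 0.61, and 3 were lower, against 5.6% and 2.96% of all genes. The median was -0.09.

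In the Hedgehog list 1 of 8 was higher and 0 lower, against 5.6% and 2.96% of all genes. GLI1, a transcription factor and target of that pathway that EWSR1-FLI1 also activates, was at 9.27 CPM at 24 h and 24.1 CPM at 48 h under FAT4 siRNA, and 10.9 and 11.7 CPM under control siRNA. PTCH1, the other common target, was at 0.06 and GLI2 and GLI3 were at -0.36 and -0.28. In the NOTCH list NOTCH3 was at 11.8 CPM at 24 h and 33.2 CPM at 48 h under FAT4 siRNA, and 15 and 25.4 CPM under control siRNA. The glycosyltransferase LFNG had log2 ratios of -1.03 and -0.76, and HES6 had 1.0 and 1.14. In that list 2 of 11 were higher and 1 lower, against the same shares of all genes. Among 8 WNT antagonists and targets 0 were past 1.5-fold. ID3 and ID1, targets of BMP signalling that block differentiation factors, were lower with both siRNAs, at -0.86 and -0.79 under FAT4 siRNA and -1.37 and -1.20 under control siRNA. With SMAD6, 3 of 13 in their list were lower and 0 higher, against 2.96% and 5.6% of all genes.

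Of 37 counted targets activated by the EWSR1-FLI1 fusion, 3 were at least 1.5-fold higher under FAT4 siRNA and 3 lower, against 5.6% and 2.96% of all genes, and the median log2 ratio was -0.20 against 0.01 under control siRNA, where 0 were higher and 0 lower. IGF1, the insulin-like growth factor, was at 33.4 CPM at 24 h and 17.2 CPM at 48 h under FAT4 siRNA, and 29.6 and 28.2 CPM under control siRNA. PRKCB, a protein kinase C, was at 501 CPM at 24 h and 334 CPM at 48 h under FAT4 siRNA, and 538 and 498 CPM under control siRNA, and NKX2-2, a homeodomain repressor, had log2 ratios of -0.44 and 0.17. FCGRT was the third lower gene, at -0.69, and GLI1, MAPT and KCNAB3 were the higher ones, at 1.29, 0.73 and 0.62. The ratio was larger under FAT4 siRNA in 8 of 37 (21.6%) and after removal of the trends in 7 of 37 (18.9%). The median difference was -0.133 and then -0.173.

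Genes the fusion represses had a median of 0.01 with 3 of 25 higher and 2 lower, a median that changed sign with DESeq2 size factors. COL1A2, a chain of type I collagen, was at 395 CPM at 24 h and 716 CPM at 48 h under FAT4 siRNA, and 374 and 594 CPM under control siRNA, while the partner chain COL1A1 was lower, from 25.9 to 16.1 CPM under FAT4 siRNA. COL6A2 was at 9.88 CPM at 24 h and 17.96 CPM at 48 h under FAT4 siRNA, and 12.5 and 12.4 CPM under control siRNA and TIMP3, a metalloproteinase inhibitor, at 18.4 CPM at 24 h and 10.2 CPM at 48 h under FAT4 siRNA, and 24.3 and 23.01 CPM under control siRNA. These genes were also in the matrix list, where 4 of 30 were higher and 2 lower, against 5.6% and 2.96% of all genes. WT1, the Wilms tumour transcription factor, was at 29.7 CPM at 24 h and 16.2 CPM at 48 h under FAT4 siRNA, and 42.7 and 49.99 CPM under control siRNA, above its 24 h level under control siRNA and below it under FAT4 siRNA.

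Genes tied to FAT4 itself showed small ratios. Among cadherins of the Fat and Dachsous type and planar polarity genes 0 of 20 were at least 1.5-fold higher and 1 was lower, WNT5A, at 50.5 CPM at 24 h and 32.4 CPM at 48 h under FAT4 siRNA, and 42.9 and 42.2 CPM under control siRNA. FAT3 had log2 ratios of -0.51 and 0.11 and the FAT4 ligand DCHS1 of -0.25 and 0.10. The list median of -0.03 changed sign when libraries were scaled by gene totals. Hippo kinases and adaptors held 0 of 23 past 1.5-fold either way, with a median of -0.11, and YAP1 was at -0.18.

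Among 16 YAP and TAZ targets 1 was higher and 2 lower, against 5.6% and 2.96% of all genes, with a median of -0.20. Under control siRNA 0 were higher and 3 lower, with a median of -0.10. GADD45A, a growth arrest gene, was at 35.3 CPM at 24 h and 58.6 CPM at 48 h under FAT4 siRNA, and 34.2 and 36.2 CPM under control siRNA, MYOF was lower at -0.80 and AMOTL2 at -0.60. The matricellular targets CTGF and CYR61 had -0.07 and 0.22 under FAT4 siRNA and -0.92 and -0.49 under control siRNA. In the list the ratio was larger under FAT4 siRNA for 6 of the 16 (37.5%, against 50.6% of all genes). It was smaller for 10, and the median difference was -0.021. Of 15 cadherin and junction genes 0 were higher and 2 lower, CDH4 from 13.9 to 7.29 CPM and the plakophilin PKP2 from 9.61 to 5.37 CPM.

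Of 29 interferon-stimulated genes 4 were lower at 48 h, against 2.96% of all genes, and 0 were higher, with a median of -0.20. Under control siRNA 6 were lower and 0 higher, with a median of -0.34. IFIT1, which binds foreign RNA, went from 6.43 to 2.88 CPM, IFIT3 from 21.3 to 11.9 CPM, IFI44 from 45.2 to 25.9 CPM and CMPK2 from 10.6 to 5.63 CPM. Their log2 ratios were -0.94, -0.78, -0.78 and -0.81, and -0.81, -0.70, -0.55 and -0.70 under control siRNA. Of 15 genes of the RNA interference machinery, which the siRNA itself uses, 1 was higher, the Argonaute gene EIF2C4 at 1.02, and 0 were lower. Heat shock chaperones held 0 of 20 past 1.5-fold under FAT4 siRNA, with a median of -0.15, whereas under control siRNA 0 were higher and 4 lower with a median of -0.36. HSPA8, the constitutive HSP70, was at 4764 CPM at 24 h and 3735 CPM at 48 h under FAT4 siRNA, and 4416 and 2652 CPM under control siRNA, and HSPA1A, the inducible form, had log2 ratios of 0.19 and -0.60. All 20 had the larger ratio under FAT4 siRNA, and 18 of 20 after removal of the trends (90.0%). HSPA1A and HSPA1B are near-identical copies, so their counts are uncertain.

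Antioxidant genes of NRF2 were close to all genes, with 1 of 21 higher, the heme oxygenase HMOX1 from 4.06 to 6.71 CPM, and 0 lower. Of 7 metallothioneins and zinc genes 3 were lower, against 2.96% of all genes, and 0 higher. They were MT1G, MT1F and MT2A, at -1.94, -1.07 and -0.73, members of a family of near-identical copies. Under control siRNA these 3 were at -1.61, -0.72 and -0.57, and 2 of the 7 were lower and 2 higher. In the lysosome list 2 of 37 were higher, BNIP3 and the autophagy receptor NBR1, and 1 was lower, the proton pump subunit ATP6V0D1 at -0.71. Of 21 caspases and BCL2 genes 1 was higher, CASP9 at 0.78, and 1 lower, BCL2L1 at -0.63. In both lists the shares were near the 5.6% and 2.96% of all genes. Neural genes held 3 of 26 higher and 4 lower, against 5.6% and 2.96% of all genes. Under control siRNA 1 was higher and 0 lower. Among them was the secreted neuropeptide precursor VGF, at 4.53 CPM at 24 h and 12.4 CPM at 48 h under FAT4 siRNA. Its values under control siRNA were 3.98 and 5.81 CPM. The neuronal tubulin TUBB3, also among them, went from 161 to 95.3 CPM under FAT4 siRNA and from 228 to 188 CPM under control siRNA. Nuclear retained and snoRNA host RNAs had 0 of 13 past 1.5-fold, with NEAT1 at 0.27 and MALAT1 at 0.21.

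The lowest ratios were led by NEB, the giant actin-binding protein nebulin. NEB was at 112 CPM at 24 h and 20.2 CPM at 48 h under FAT4 siRNA, and 64.6 and 11.3 CPM under control siRNA, and MARCH4, a membrane-bound ubiquitin ligase, was at 26.7 CPM at 24 h and 4.6 CPM at 48 h under FAT4 siRNA, and 13.03 and 2.53 CPM under control siRNA. Both were lower at 48 h with either siRNA, and the summed level of 7 skeletal muscle markers was 12.2 CPM at 24 h and 14.1 CPM at 48 h under FAT4 siRNA. NTSR1, the neurotensin receptor, had log2 ratios of -1.80 and -1.34, SGK1, a serum-induced and glucocorticoid-induced kinase, had -1.43 and -1.0, and CD44, the hyaluronan receptor, had -1.43 and -1.14. The phosphatase PTPRE, at 19.6 CPM at 24 h and 5.95 CPM at 48 h under FAT4 siRNA, and 19.6 and 11.8 CPM under control siRNA, and the peptide transporter SLC15A2, at 50.5 CPM at 24 h and 18.5 CPM at 48 h under FAT4 siRNA, and 52.6 and 39.6 CPM under control siRNA, had lower ratios under FAT4 siRNA than under control siRNA. SAMD11, METTL7B, RLTPR and SPTBN5 lay between -1.31 and -1.23, and C11orf41 was at -1.38 against -0.28 under control siRNA. At the other end AKNA, an AT-hook protein, was at 24.1 CPM at 24 h and 140.5 CPM at 48 h under FAT4 siRNA, and 27.6 and 75.4 CPM under control siRNA, and the chloride channel gene BEST1, NCRNA00263 and C6orf223 had log2 ratios of 2.49, 2.40 and 2.69.

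The ratio under FAT4 siRNA was at least 1.5-fold above that under control siRNA for 172 genes (1.62%) and at least 1.5-fold below it for 169 (1.6%). At 2-fold the numbers were 12 (0.113%) and 10 (0.0944%). On the upper side stood GDF15, GLI1, IL20RB, FAM171A2, IL8, IER3, TMEM143 and AKNA, with differences of log2 ratios from 1.08 to 3.03. On the lower side stood RET, RPS29, ABCA5, LOC150381, C11orf41, ENC1, WT1 and ACPP, from -1.03 to -1.37. ENC1, an actin-binding kelch protein, was at 21.3 CPM at 24 h and 10.4 CPM at 48 h under FAT4 siRNA, and 24.7 and 26.9 CPM under control siRNA, with the FAT4 siRNA library of 48 h again the lowest. TMEM143 and LOC150381 had log2 ratios of 1.03 and -1.04 under FAT4 siRNA and -0.07 and 0.07 under control siRNA.

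Base composition moved with the difference between the siRNAs. Across the 90.6% of counted genes with a matched transcript the Spearman rho of the time ratio with GC content was 0.00 under FAT4 siRNA and -0.30 under control siRNA. The quartile of genes with the lowest GC content, with a median of 38.83% GC, had a median log2 ratio of -0.03 under FAT4 siRNA and 0.08 under control siRNA. The quartile with the highest content, with a median of 60.14% GC, had -0.03 and -0.15. The trend was thus in the ratio of the control libraries. With the trends removed 529 of the 9599 genes with a matched transcript were higher by 1.5-fold and 285 lower under FAT4 siRNA. At least 2-fold above or below control were 6 and 8 of them. These numbers are over fewer genes than the 10595, so they are not directly comparable with those above. IL8, LOC150381 and C11orf41 had no matched transcript and dropped out for that reason. GDF15 then differed by 2.89 on the log2 scale, GLI1 by 1.08, RET by -1.43 and WT1 by -1.14.

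**Figure D4:**
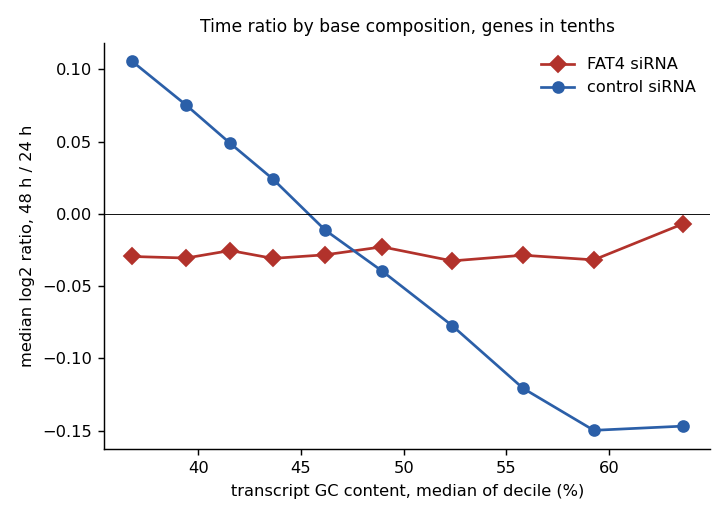
Median log2 ratio of 48 h to 24 h (y axis) in 10 groups of genes of equal size ordered by transcript GC content (x axis, percent), with diamonds for FAT4 siRNA and circles for control siRNA. The FAT4 siRNA medians lie between -0.03 and -0.01 in every group, and those of control siRNA run from 0.11 to -0.15.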

How the data were processed

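RNA-seq gene counts of 4 libraries were used, 1 each for control siRNA and FAT4 siRNA at 24 h and 48 h. The values the authors deposited, 1 library in each file, are read counts per gene, whole numbers without any scaling. Per the submitters' processing notes, TopHat2, HTSeq, SAMtools, CASAVA 1.8.2 and hg19 were used, in no stated order, and the labels name a stranded mRNA kit. The annotation, counting mode and strand setting are not given in the sources, so values of overlapping genes, antisense genes and near-identical copies are uncertain. In each file 5 counter entries name no gene and were left out; reads outside genes were 19.6% at 24 h and 20.54% at 48 h under FAT4 siRNA, and those on more than 1 gene 0.775% at both times.

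TMM scaling in edgeR 4.0.16 (R 4.3.3) gave factors of 0.973 and 1.01 for the FAT4 siRNA libraries (0.987 and 1.03 for control). Of 23228 genes 5735 had 0 counts everywhere and 13712 passed filterByExpr (minimum count 10, total 15), of which 10595 had a mean of at least 5 CPM over the 4 libraries and were counted. Log2 ratios were taken of CPM plus a pseudocount of 1. Exact 95% Clopper-Pearson intervals (scipy 1.17.1) belong to plain CPM ratios, and these and the floor of 3 counts cover counting error only. The ratio code was tested on simulated data. No test was run, since 1 library a side leaves no residual.

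The comparison, the 43 gene lists (1305 entries, 1297 matched) and the rule for named genes were chosen with earlier results of these data known. Named genes were FAT4, the 15 highest and 15 lowest ratios whose interval leaves out 1, the 8 furthest above and 8 furthest below control, the 8 higher and 8 lower under both siRNAs, and up to 4 members a list, with members of some lists given up to 8. PPP1R15A, HSPA5, MYC, LDHA, SLC7A11, NFKBIA, SOD2, DCHS1, YAP1, CTGF, CYR61, KCNAB3, MVD, FDPS, CYP51A1, PTCH1, ATF4, SHMT1, SHMT2, RARS, VEGFA, HSPA1A, NEAT1, MALAT1, NKX2-2 and further members, 45 genes in all, were named after their values were seen. GENCODE 29 transcripts, matched for 90.6% of counted genes, served for GC content and length only, and their smooth trends were removed as an alternative. Promoter windows are RefSeq's on GRCh38.p14, another build than that of the counts. Alternatives were other scalings (DESeq2 1.42.0 size factors among them), pseudocounts and filters. Some list members are not reported here by name.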

Additional observations from a re-analysis of the deposited data

Results flagged for a closer look

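For 12 genes among those named, the time ratio lay on opposite sides of 1 with the 2 siRNAs, with counting intervals that leave out 1 on both sides. Among all counted genes 159 (1.5%) were so placed above 1 under FAT4 siRNA and 287 (2.71%) below it, and a difference between the siRNAs was not tested for any of them, because single libraries leave nothing to measure their spread with. FAM171A2, a transmembrane protein gene, had log2 ratios of 0.61 under FAT4 siRNA and -0.56 under control siRNA, a difference of 1.18. FTH1, the ferritin heavy chain, which has many processed copies that make its counts uncertain, had 0.43 and -0.14, a difference of 0.564. ABCA5, a lipid transporter of the ABC family, had -0.51 and 0.69, a difference of -1.2. WT1 had -0.84 and 0.22, a difference of -1.06. ACPP, prostatic acid phosphatase, had -0.71 and 0.32, a difference of -1.03. Smaller differences belonged to PPP1R15A, 0.69, to CYR61, 0.709, and to HSPA1A and HSPA1B, 0.784 and 0.731, all 4 with the ratio above 1 under FAT4 siRNA. NKX2-2, YAP1 and LDHA had the ratio below 1 under FAT4 siRNA, with differences of -0.605, -0.262 and -0.196, and the sign of LDHA under FAT4 siRNA was positive with gene totals.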

How the results depend on the processing

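The numbers of genes higher and lower by 1.5-fold, then higher and lower by 2-fold, at 48 h under FAT4 siRNA were 593, 314, 154 and 33. They stayed within 1.5 times of these with gene totals, DESeq2 size factors, TMM over the FAT4 siRNA libraries alone, a pseudocount of 0.5, a mean of at least 10 CPM, removal of the GC and length trends, and the demand that the interval leave out 1. A pseudocount of 5, which shrinks ratios by construction, gave 345, 187, 83 and 14. With a mean of at least 1 CPM more genes were counted, and 990 were higher by 1.5-fold, 262 higher by 2-fold and 56 lower by 2-fold. With filterByExpr alone the numbers were 1155, 478, 278 and 59. Genes at least 2-fold above or below control, 12 and 10, numbered 2 and 3 with a pseudocount of 5 and 17 and 17 with one of 0.5. They numbered 4 and 6 at 10 CPM, 38 and 28 at 1 CPM and 50 and 35 with filterByExpr alone. Without the GC and length trends they numbered 6 and 8, over only the 9599 genes with a matched transcript. Gene totals shifted the median log2 ratio of all genes by 0.06 and DESeq2 size factors by -0.01. Of 233 named genes 231 kept their sign in every one of the 10 alternatives that held them. The other 2 were LDHA, at -0.053 and then 0.008 with gene totals, and HSPA5, at 0.009 and then -0.005 with DESeq2 size factors. The pseudocounts, the filters and the demand on the interval cannot change the sign of a gene. Only the scalings and the removal of trends could do so. At 10 CPM 202 of the named genes had a value, and genes without a matched transcript had none with the trends removed. The medians of 10 of 43 lists changed sign under at least 1 alternative, each of them at most 0.116 from 0, and those of 33 kept it. No paired analysis was possible because 48 h and 24 h under FAT4 siRNA have 1 library each, and for the same reason none could be left out. A fit of time over both siRNAs together is another comparison and was not run. Depth limits genes such as SLC16A3, with 4 counts at 24 h, and ABCG1, with 8.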
